A study of Caenorhabditis elegans with 2 samples.

Results

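The nuclear genes of the mitochondrial respiratory chain of Caenorhabditis elegans are described here by where the tagged protein LSL-1 lay at their promoters. The set holds 43 of the 19973 nuclear protein-coding genes of the Ensembl annotation. It was chosen by symbol: nuo-, cox-, ucr-, atp-, asb- or asg- followed by a digit, with sdha-1, sdhb-1, sdhd-1, mev-1, isp-1, cyc-1, cyc-2.1 and gas-1. No measured value entered that choice, although earlier results of these data were known when it was made. The 12 protein-coding genes of the mitochondrial genome hold none of these symbols, and no deposited region lies on that genome.

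Chromatin immunoprecipitation followed by sequencing (ChIP-seq), which recovers the DNA bound by a protein, was carried out on whole young adult worms of 69 h, with both sexes pooled. All animals were of strain OP720, which carries the unc-119 allele tm4063 and the integrated transgene wgIs720. The transgene encodes LSL-1 with TY1, EGFP and 3xFLAG tags, adds the rescuing unc-119(+), and was precipitated through GFP. There were 2 biological replicates in 1 group, so no test between conditions was possible. Called regions are listed without reads, which leaves the depth unknown, and whole animals do not show in which cells a site was bound.

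The respiratory chain passes electrons from NADH (complex I) and succinate (complex II) through complex III and cytochrome c to oxygen at complex IV, and the proton gradient so built drives the ATP synthase, complex V. Most subunits are encoded in the nucleus and imported. Germ cells and oocytes are rich in mitochondria, which the embryo inherits from the oocyte. LSL-1 is a zinc finger protein of germline nuclei, and the X chromosome is known to be largely silent in much of the worm germline. Many worm genes lie in operons, in which closely spaced genes on the same strand are transcribed from the promoter of the first gene.

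A gene was called bound if a summit of the 3897 peaks that passed the irreproducible discovery rate (IDR, a measure of rank agreement between replicates) lay from 1000 bp upstream to 200 bp downstream of its annotated 5' end. Of the 43 genes, 23 were bound (53.5%, 95% exact Clopper-Pearson interval 37.7 to 68.8), where 14.2% of all protein-coding genes were. The autosomes held all 23, among 37 members (62.2%, 44.8 to 77.5), against 16.3% of all autosomal genes. Of the 6 members on X none was bound (exact upper limit 45.9%), against 1.03% of all X-linked genes. The intervals cover the counting of genes only. Without an untagged control analysed here, the part of signal that does not depend on LSL-1 was not tested.

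By chromosome, 8 of 11 members on III were bound, where 24.4% of all genes of that chromosome were, and 7 of 11 on I (22.9%). Chromosome V had 3 of 4 (9.33%), IV 3 of 6 (14.9%) and II 2 of 5 (15.9%). On each autosome the members' share was above that of the chromosome's genes, on counts of 4 to 11 genes.

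Signal was compared as ranks, since the deposited signal value is on the caller's own scale; rank 1 is the strongest region of a list. The 23 bound genes had a median rank of 1074 among the IDR peaks, and all 2836 bound protein-coding genes one of 1443.5. In the strongest rank quartile (to rank 975) lay 10 of the 23, in the next 8, then 3 and 2. Of all bound genes the shares were 35.5%, 27.9%, 20.8% and 15.8%. The members were thus spread over the whole range of strengths, from rank 32 to rank 3776.

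**Figure D1:**
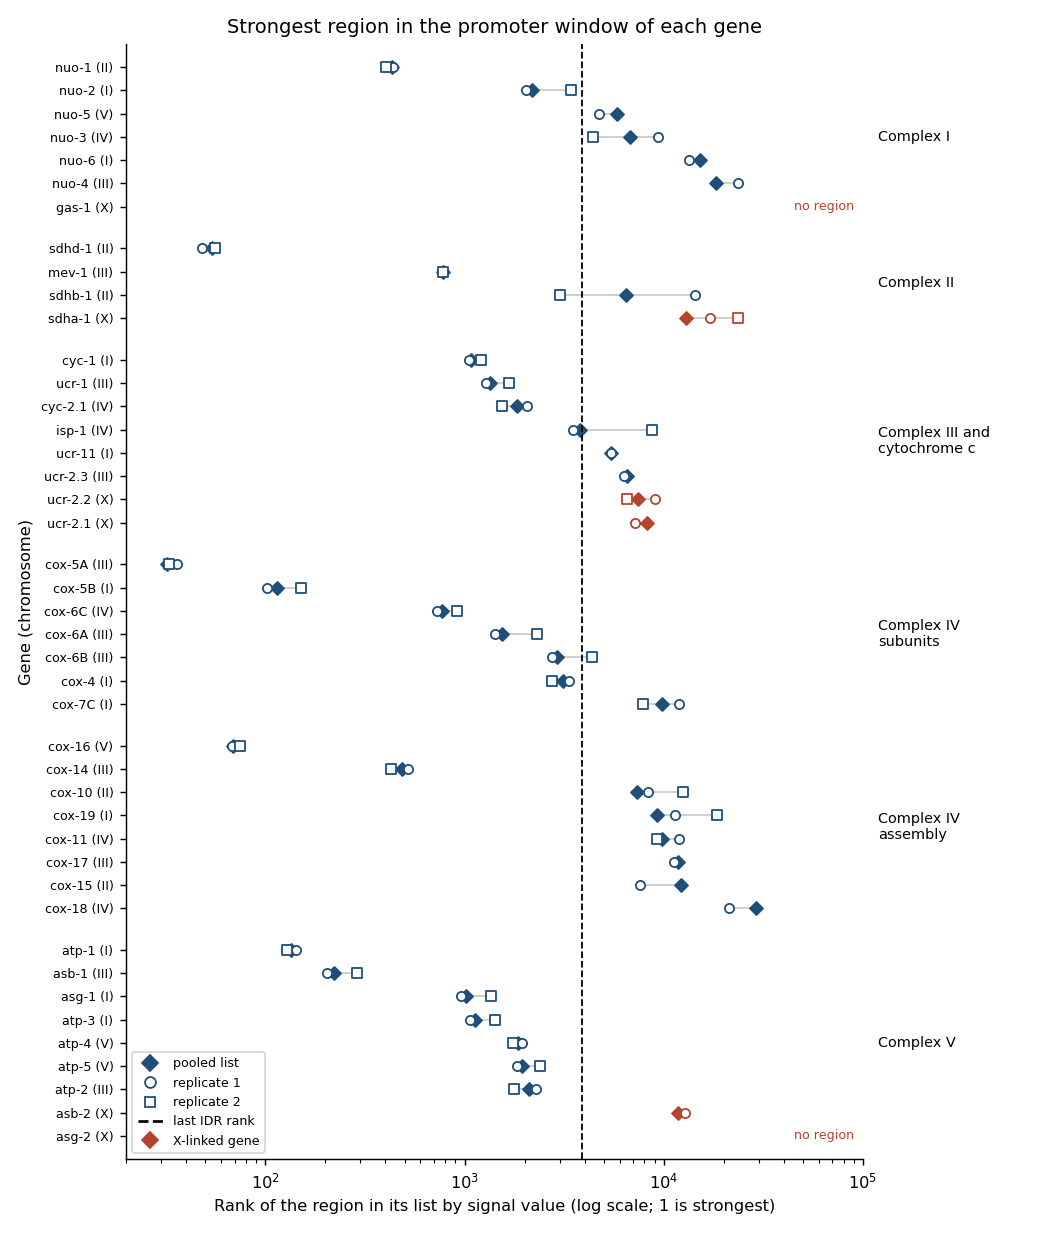
Each row is 1 gene, and its marks give the rank of the strongest region in its promoter window in the pooled list (diamond), with the rank of a region within 100 bp in replicate 1 (circle) and replicate 2 (square), on a log axis. X-linked genes are red, and the dashed line is the last IDR rank, 3897. The 23 bound genes lie left of the line in the pooled list, cox-5A at rank 32 being the strongest, and all 6 X-linked genes lie right of it or have no region.

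The replicates placed these peaks alike. Of the 23 peaks, 21 were among the 3897 strongest regions of both replicates, matched within 100 bp, where 82.3% of all IDR promoter peaks were. IDR chose peaks on this agreement, so it is a description of them. The exceptions had no match within 100 bp among the strongest regions of replicate 2. They were isp-1 (rank 3485 in replicate 1 and 8722 in replicate 2) and cox-6B (2747 and 4380). With the strongest regions of replicate 1 alone the same 23 genes were bound, and with those of replicate 2 alone 22 of them and sdhb-1. The 22 left out cox-6B and held isp-1 through another summit in its window, more than 100 bp from the pooled one.

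The DNA under the strongest site of the set, cox-5A, is shown with examples of sites that hold the marked words, and with the asb-1 and asb-2 sites as an autosomal and X-linked pair. The examples are not simply the next strongest sites, although sdhd-1 (rank 54) follows cox-5A in strength. They over-represent the words: 5 of the 6 bound sites printed hold one, where 10 of all 23 bound sites do. Each line holds 101 bases of WBcel235 (ce11) from the RefSeq assembly, centred on the summit and read 5' to 3' on the strand of the gene. Capitals mark the word ACAGTA, the word ACTGTA and the word GGCGCA, each on either strand. The first overlaps the reverse of the second, so a longer capital run can hold both. The positions are chrIII:12905157-12905257 (+) for cox-5A, chrII:11050839-11050939 (-) for sdhd-1, chrIII:10334088-10334188 (+) for mev-1 and chrIII:5591923-5592023 (+) for ucr-1. They are chrII:11097469-11097569 (+) for nuo-1, chrIII:4595977-4596077 (-) for asb-1 and chrX:4469770-4469870 (+) for asb-2.
cox-5A: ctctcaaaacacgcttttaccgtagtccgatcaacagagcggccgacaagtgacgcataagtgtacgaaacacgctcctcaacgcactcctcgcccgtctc
sdhd-1: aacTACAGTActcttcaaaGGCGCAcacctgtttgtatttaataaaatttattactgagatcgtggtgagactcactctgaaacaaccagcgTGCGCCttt
mev-1: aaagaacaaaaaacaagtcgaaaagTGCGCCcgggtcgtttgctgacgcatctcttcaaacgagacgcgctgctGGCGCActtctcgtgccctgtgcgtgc
ucr-1: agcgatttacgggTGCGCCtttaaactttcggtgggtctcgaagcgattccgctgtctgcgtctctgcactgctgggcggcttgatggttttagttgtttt
nuo-1: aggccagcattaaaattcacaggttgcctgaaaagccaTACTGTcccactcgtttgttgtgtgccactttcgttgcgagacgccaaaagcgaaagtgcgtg
asb-1: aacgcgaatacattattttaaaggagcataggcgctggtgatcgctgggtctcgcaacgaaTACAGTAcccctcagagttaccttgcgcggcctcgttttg
asb-2: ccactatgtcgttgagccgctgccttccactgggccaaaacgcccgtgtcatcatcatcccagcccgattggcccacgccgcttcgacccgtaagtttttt

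The words marked are those found at LSL-1 summits in an earlier reading of these data, so their presence is given as a description. ACAGTA or ACTGTA lay within 50 bp of the summit at 6 of the 23 bound genes (26.1%): nuo-1, sdhd-1, cyc-2.1, cox-16, asb-1 and atp-4. The share was 19.4% over all 2269 IDR promoter summits and 9.41% over 6363 lower-ranked pooled summits in promoter windows. GGCGCA lay at 6 as well (26.1%): nuo-2, mev-1, sdhd-1, cyc-1, ucr-1 and cox-16, against 18.8% and 3.52%. The sites of sdhd-1 and cox-16 held both kinds of word, and the strongest site of the set, at cox-5A, held none of them within 50 bp. The longer word CTACAGTA lay within 50 bp of 1 summit, that of sdhd-1 (4.35%, against 10.2% of all IDR promoter summits). It was in 0 of the 43 promoter windows, where 10.6% of all protein-coding windows and 4.1% of X-linked ones held it; at sdhd-1 it lay just beyond the upstream edge.

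Among autosomal genes complex V had the highest share of the classes, which hold only genes chosen by the symbol rule. With X-linked genes counted in it had 7 of 9 (77.8%), below the complex IV subunits. The ATP synthase makes ATP from the proton gradient, with a catalytic head of alpha and beta subunits held by a peripheral stalk. All 7 of its autosomal members were bound, and both X-linked ones were not. The alpha subunit gene atp-1 (WBGene00010419, chromosome I, 12652277 to 12654655) had its peak at rank 135, with 142 in replicate 1 and 129 in replicate 2, and the summit lay at +4 bp in its 5' UTR. The beta subunit gene atp-2 had rank 2104 (2272 and 1779) at -219 bp, and a further IDR summit in its window. Among the stalk genes asb-1 (subunit b) had rank 221 (205 and 288), atp-3 (the oligomycin sensitivity protein) rank 1134 (1070 and 1428), atp-4 (coupling factor F6) rank 1853 (1953 and 1745) and atp-5 (subunit d) rank 1945 (1831 and 2388). The membrane subunit g gene asg-1 had rank 1020 (954 and 1353). The strongest and the weakest autosomal gene of complex V thus both encode parts of the catalytic head.

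Complex IV is cytochrome c oxidase, described here as its structural subunits and its assembly factors, all autosomal. Of 7 subunit genes 6 were bound, and of 8 assembly genes 2 were, against 16.3% of all autosomal genes. Both classes hold only genes with a cox- symbol. Assembly genes with other symbols, some bound and some not, were counted among the other respiratory chain genes described below. Of that list 14 of 27 autosomal genes were bound, so the 2 of 8 is not a share of all assembly genes. An operon-like position, with a same-strand gene ending within 500 bp upstream, was held by 0 of the 7 and 5 of the 8. Over all autosomal genes it was held by 3347 of 17242. Whether this position bears on the bound shares of the classes was not tested. The strongest peak of the whole set lay intergenic at -284 bp from cox-5A (WBGene00012553, chromosome III, 12905491 to 12906619), with rank 32 in the pooled list, 36 in replicate 1 and 33 in replicate 2. Next was cox-5B on chromosome I, at rank 115 (102 and 151) and -21 bp. The others were cox-6C (rank 771, with 728 and 918 in the replicates), cox-6A (rank 1545, with 1422 and 2301, at -777 bp), cox-6B (rank 2903, at -731 bp) and cox-4 (rank 3113, with 3325 and 2761 in the replicates). The annotated cox-6B gene runs from 2699663 to 2786859, and its outermost 5' end was used. The remaining subunit gene, cox-7C, had only a region of pooled rank 9810 in its own coding sequence.

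The bound assembly genes were cox-16 and cox-14, and neither was alone at its peak. The cox-16 peak (rank 69, with 68 and 75 in the replicates) had its summit in the 5' UTR of syp-2, a gene of the synaptonemal complex that joins meiotic chromosomes, at -391 bp from cox-16. The cox-14 peak (rank 486, with 517 and 428) lay between cox-14 and rde-4, a gene of RNA interference. The 6 unbound assembly genes were cox-10 and cox-15, which make the heme A of the oxidase, cox-11, cox-17 and cox-19, which deliver its copper, and cox-18, which inserts a subunit into the membrane. Their pooled regions ranked from 7304 (cox-10) to 29132 (cox-18). On 7 and 8 genes the exact intervals of the shares were 42.1 to 99.6% for subunits and 3.19 to 65.1% for assembly genes. They overlap, and that for assembly genes includes the autosomal share. Overlap does not show that the shares are alike, and a difference between them was not tested.

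Complex II oxidises succinate and also belongs to the citric acid cycle. Both genes of its membrane anchor were bound. The peak of sdhd-1 (WBGene00009353, chromosome II, 11049144 to 11049913) had rank 54, with 48 in replicate 1 and 56 in replicate 2. Its summit lay at -976 bp, just inside the window and in an intron of ilkp-1, so the assignment to sdhd-1 rests on the width of the window. That of mev-1, which encodes the cytochrome b subunit, had rank 776 (781 and 775) at -139 bp, in sequence shared with the window of jmjd-4, and a second summit of rank 3539 lay at +61 bp. The iron-sulphur subunit gene sdhb-1 was unbound, and its replicates differed widely: the region in its own intron had rank 6456 in the pooled list, 14340 in replicate 1 and 3020 in replicate 2. The flavoprotein gene sdha-1 is X-linked and was unbound.

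Complex III, which hands electrons to cytochrome c, had 4 bound genes of 6 autosomal ones with cytochrome c counted in. The cytochrome c1 gene cyc-1 had rank 1074 (1052 and 1213) at -302 bp, the core subunit gene ucr-1 rank 1340 (1278 and 1680) at -162 bp, and the cytochrome c gene cyc-2.1 rank 1833 (2058 and 1537) at -13 bp. The Rieske iron-sulphur gene isp-1 was the weakest bound member of the set (rank 3776) and the nearest to the last IDR rank from inside. Nearest from outside was ucr-11, a small subunit gene, with pooled rank 5406 and a region in replicate 1 only. The 3 genes of core subunit 2, ucr-2.1 and ucr-2.2 on X and ucr-2.3 on III, were all unbound.

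Complex I, which takes electrons from NADH, had 2 bound genes of the 6 autosomal ones in the set, all with a nuo- symbol. Further complex I genes have other symbols, some bound and some not, and were counted among the other respiratory chain genes described below. Of that list 14 of 27 autosomal genes were bound, so the 2 of 6 is not the share of the whole complex. The peak of nuo-1, the flavoprotein subunit that binds NADH, had rank 430 (435 and 405) and lay at -318 bp between nuo-1 and the ribosomal protein gene rpl-36.A, in an exon of the noncoding RNA gene C09H10.13. That of nuo-2 had rank 2179 (2030 and 3420), in the 3' UTR of the gene before it. The unbound autosomal genes nuo-3, nuo-4, nuo-5 and nuo-6 had pooled regions of rank 6756, 18192, 5799 and 15272. For nuo-5, which encodes an iron-sulphur subunit of the electron input arm, an IDR summit of rank 3869 lay at -1123 bp, just outside the window.

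**Figure D2:**
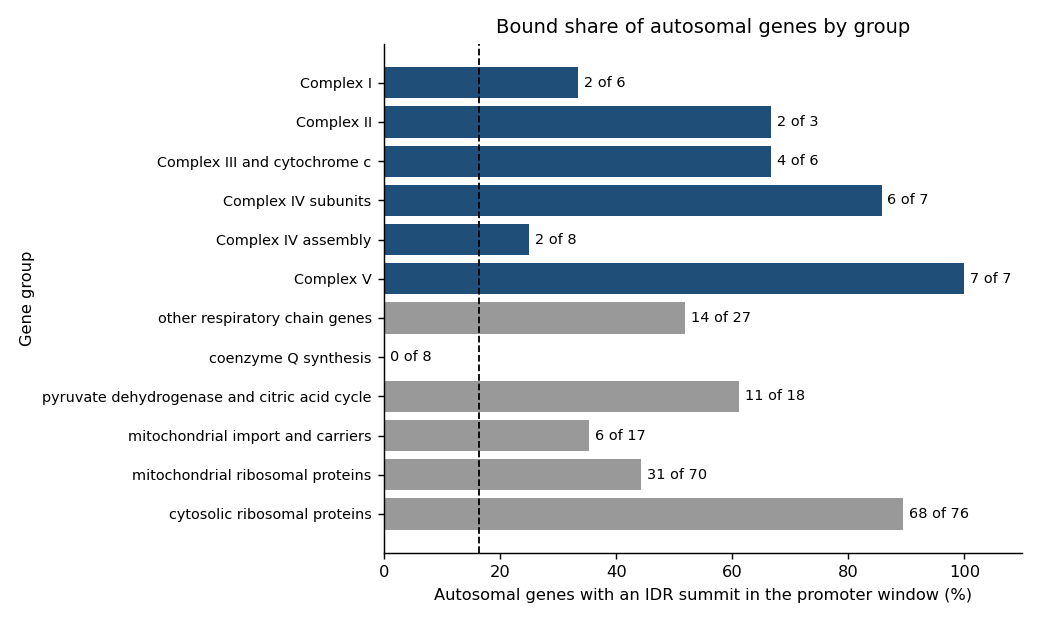
Bars give the percent of autosomal genes with an IDR summit in the promoter window, with the number bound written at each bar. Blue bars are the 6 classes of the set and grey bars are 6 related gene lists. The classes hold only genes chosen by the symbol rule, and other genes of the same complexes are in a grey bar. The dashed line is the 16.3% of all autosomal protein-coding genes; complex V is at 7 of 7 and coenzyme Q synthesis at 0 of 8.

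Summits lay close to the start of the genes. The median position was -267 bp over the 23 bound genes and -250 bp over all bound genes, and 19 of 23 summits lay from 0 to 500 bp upstream, against 74.1% of all bound genes. Of these summits 14 were intergenic, 9 were in an annotated gene of any type, and none was in a coding exon. The same count over all IDR promoter summits was not made, so this is not shown to be particular to the set. In 13 of 23 cases (54.5% of all bound genes) the summit also lay in the window of another gene, so the gene concerned cannot be told apart by position. The 10 genes alone at their peak were cox-5A, sdhd-1, cox-5B, asb-1, cyc-1, cox-6A, cyc-2.1, atp-4, nuo-2 and cox-4. With each summit given to the closest gene alone, 15 of the 23 remained bound, where the share of all genes fell to 10.5%. The 8 that dropped out were nuo-1, isp-1, cox-6B, cox-6C, cox-14, cox-16, asg-1 and atp-5.

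**Figure D3:**
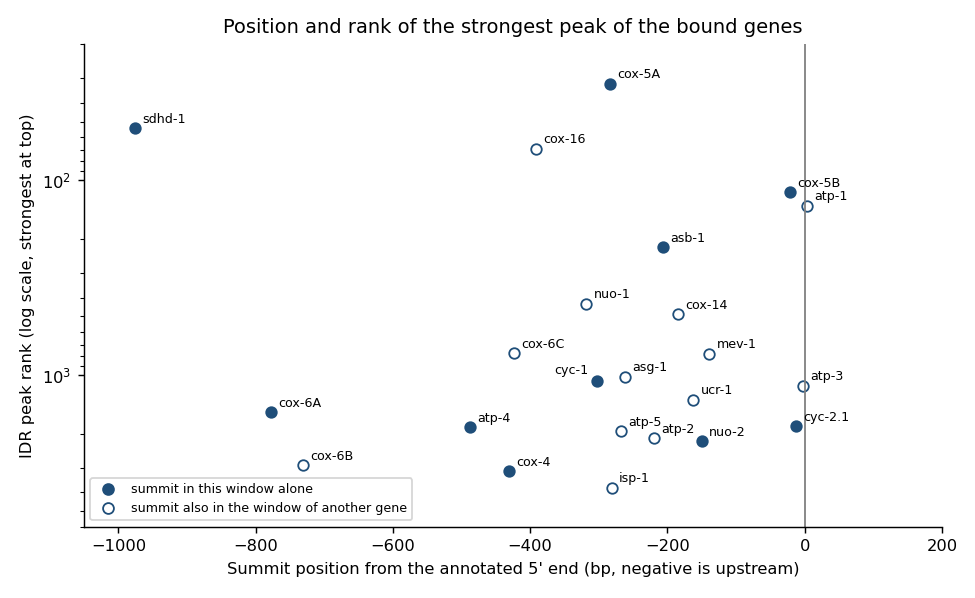
Each point is the strongest peak of 1 of the 23 bound genes, placed by the distance of its summit from the annotated 5' end (x axis, bp) and by its IDR rank (y axis, log scale, strongest at the top). Filled points have no other protein-coding window at the summit. Most points lie within 500 bp upstream, and sdhd-1 (-976 bp), cox-6A (-777 bp) and cox-6B (-731 bp) lie farther out.

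All 14 unbound autosomal members had some region in their promoter window in the pooled list of 30000, background regions included, against 28.9% of all unbound autosomal genes. Their ranks ran from 5406 to 29132 with a median of 9517, where the median of those other genes with a region was 13115. Of the 14, 6 had a region at the same place in both replicates, and the other 8 had one in replicate 1 alone. The list of replicate 2 is the shorter (26018 regions against 30000), and the same share over all unbound autosomal genes was not computed. Of the 18 regions at unbound genes, X included, 8 had their summit in a coding exon and 4 were intergenic. These positions were not counted over all lower-ranked promoter regions.

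In 8 of the 14 unbound autosomal genes a same-strand protein-coding gene ended within 500 bp upstream, the spacing of operons, against 19.9% of all unbound autosomal genes. The gaps of these 8 ran from 96 to 119 bp. They were nuo-4, nuo-5, ucr-11, cox-11, cox-15, cox-17, cox-18 and cox-19. Of the 23 bound genes 5 stood so, against 17.1% of all bound autosomal genes. A gap within 150 bp was found for 3 of these (nuo-2, cyc-2.1 and atp-4). Operons were read from gaps here and not from an operon annotation.

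When each chain of such neighbours was followed upstream to its first gene, that gene was bound for 7 of the 8, where it was for 29.2% of all unbound autosomal genes in such a position. The latter share covers all gaps up to 500 bp, and a share at gaps as short as those of the 8 was not computed. The cox-18 gene follows Y55F3AR.2, whose peak of rank 8 also lies in the window of cct-8. The nuo-5 gene follows Y45G12B.2 (rank 269). The chain of cox-15 begins with the proteasome gene rpn-9 (rank 380, shared with T06D8.9), and that of cox-11 with lin-54 (rank 551, its summit also in the window of rpl-12). The chain of nuo-4 begins with syf-2 (rank 795, shared with K04G7.1), ucr-11 follows dad-1 (rank 809, shared with tre-1), and the chain of cox-19 begins with hpo-35 (rank 3216, shared with ned-8). The exception was cox-17, whose upstream neighbour ubc-20 was unbound. Counting a gene as reached by its own window or by that of the first gene of its chain, 30 of 37 autosomal members were, against 21.1% of all autosomal genes.

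**Figure D4:**
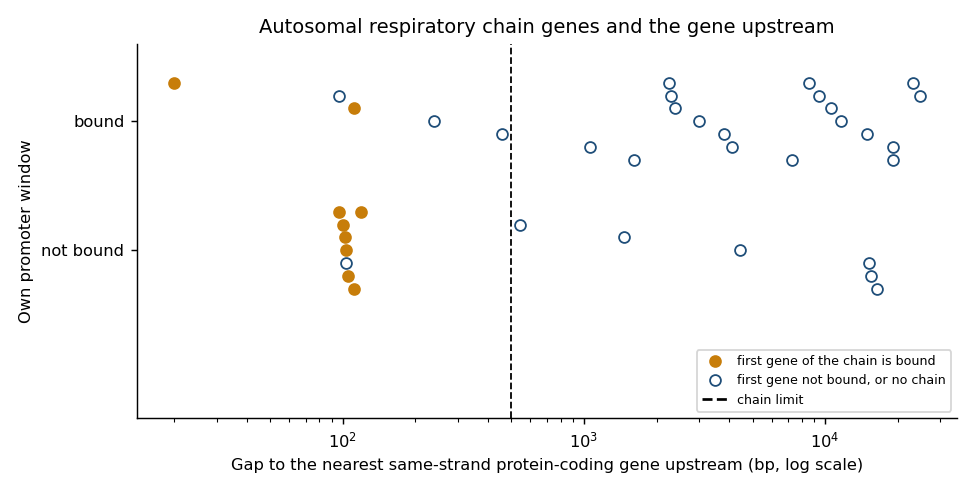
Each point is 1 of the 37 autosomal genes, placed by the gap to the nearest same-strand protein-coding gene upstream (bp, log scale), in a row for genes whose own window is bound and a row for those that are not; points are spread vertically for legibility only. Orange points lie in a chain whose first gene is bound, and the dashed line is the chain limit of 500 bp. In the lower row 7 of the 8 genes with gaps of 96 to 119 bp are orange.

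Some bound genes in such chains had a peak of their own. The cyc-2.1 gene lies 111 bp behind rpl-20, whose peak ranks 5, and had a separate summit at -13 bp. For atp-4 the gene upstream, alh-4, was unbound, and the peak of atp-4 lay in the 3' UTR of alh-4 at -488 bp. For asb-1 the summit lay in the 238 bp between it and sel-2, which was unbound. Among autosomal members outside such chains 18 of 24 were bound, and in chains 5 of 13. Over all autosomal genes these shares were 16.7% and 14.4%.

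Several respiratory chain proteins are encoded by more than one gene, in some cases by an autosomal and an X-linked copy. In 4 pairs of an autosomal and an X-linked copy whose proteins were 72.1% to 92.4% identical, the autosomal copy was bound and the X-linked copy was not. Subunit b of the ATP synthase is encoded by asb-1 on III, described as the germline form, and asb-2 on X (72.1% identical over the shorter protein). The asb-1 peak had rank 221 (205 and 288), while the region at asb-2 had pooled rank 11803, 12738 in replicate 1 and none in replicate 2, with its summit in the coding sequence. Subunit g is encoded by asg-1 on I (rank 1020) and asg-2 on X (76.3% identical), which had no region in the pooled list.

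The same held where the autosomal copy is not among the 43 genes. The subunit of complex I that carries the quinone site is encoded by gas-1 on X, with no pooled region, and by nduf-2.2 on III (92.4% identical), with a peak of rank 586 (562 and 692) at -111 bp. The flavoprotein of complex II is encoded by sdha-1 on X, with a region of pooled rank 12966 (16979 and 23680), and by sdha-2 on I (80.3% identical), with a peak of rank 334 (319 and 398) at -134 bp. Both autosomal copies were alone at their peak, as was asb-1. The asg-1 summit also lay in the window of mrps-15, and with each summit given to the closest gene alone asg-1 was not bound. The sdha-2 gene stood in an operon-like position. These pairs were named with the low share of X already known, so they add members' values to it and are no separate support.

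More distant copies gave no such contrast. The core proteins of ucr-2.1 and ucr-2.2 on X and ucr-2.3 on III were 35.8% to 39.1% identical, and all 3 genes were unbound, with pooled ranks of 8250, 7452 and 6545. Nor was either gene of the ATPase inhibitor bound, mai-1 on X or mai-2 on IV (48.9% identical, with a region of pooled rank 5185 at mai-2). No X-linked member had an IDR summit nearer than 26678 bp to its 5' end, at asg-2, and for ucr-2.2 the nearest was 354942 bp away. For the unbound autosomal members the median of that distance was 3360.5 bp.

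**Figure D5:**
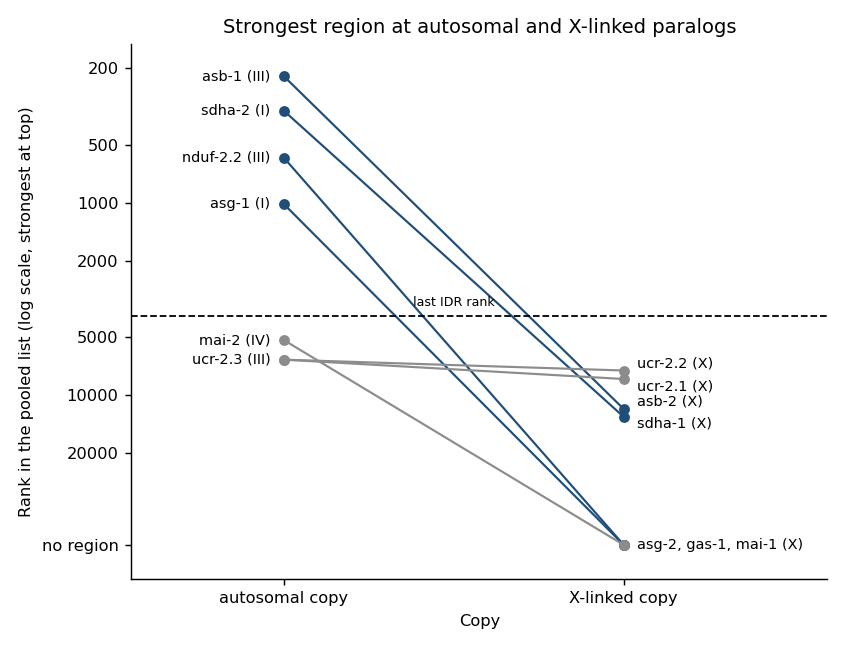
Lines join the autosomal copy (left) and the X-linked copy (right) of each pair at the rank of the strongest pooled region in the promoter window (log scale, strongest at the top), with genes that have none at the bottom. Blue pairs have a bound autosomal copy and grey pairs do not; the dashed line is the last IDR rank. The autosomal copies asb-1, sdha-2, nduf-2.2 and asg-1 lie above the line and every X-linked copy shown lies below it.

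Regions below the IDR threshold, from a list that includes background regions, were also found at X-linked members. A pooled region lay in the window of 4 of the 6, with ranks from 7452 to 12966, where 12.9% of all X-linked and 40.5% of all autosomal genes had one. Regions at ucr-2.2 (9082 and 6562) and sdha-1 were in both replicates, and those at ucr-2.1 and asb-2 in replicate 1 only.

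The bound shares of related gene lists, chosen by symbol, ranged from 0 of 8 to 68 of 76 autosomal genes, where 16.3% of all autosomal and 1.03% of all X-linked genes were bound. Of 28 other genes for subunits and assembly factors of the chain 14 were bound, all among the 27 autosomal ones (51.9%). They were led by the complex I gene ndub-8 (rank 41, shared with cup-14), sdha-2 and nduf-2.2. In the list of 23 genes for pyruvate dehydrogenase and the citric acid cycle, 11 of 18 autosomal genes were bound (61.1%) and 0 of 5 on X. The list was drawn by symbol, with no check of where in the cell each enzyme acts. Its bound genes were led by pdhb-1 (rank 868, shared with dyf-3), pdhk-2 (rank 911) and dld-1 (rank 946).

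Of 17 autosomal genes for protein import and ADP/ATP carriers 6 were bound (35.3%), led by ant-1.1 (rank 480), tomm-20 (rank 1005) and tin-9.2 (rank 1552). The summits of ant-1.1 and tin-9.2 also lay in windows of other genes. None of 8 autosomal genes that make coenzyme Q, the electron carrier between complexes I or II and III, was bound. Of these 8, 6 stood in an operon-like position, and the first gene of the chain was bound for 1 of the 6, against the 29.2% of all unbound autosomal genes in such a position. Mitochondrial ribosomal proteins had 31 bound genes of 70 (44.3%), led by mrpl-37 (rank 260), mrpl-15 (rank 565) and mrps-21 (rank 611). The summits of mrpl-37 and mrps-21 also lay in windows of other genes. Of the 23 unbound genes of that list in an operon-like position 17 had a bound first gene, against the same 29.2%. Cytosolic ribosomal proteins had 68 of 76 autosomal genes bound (89.5%) and 1 of 2 on X, led by rpl-3, rpl-20 and rpl-15. The summits of rpl-20 and rpl-15 also lay in windows of other genes.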

How the data were processed

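The regions were called on each replicate and on both replicates pooled against a control library, on assembly ce11, per the deposited sample notes. The sources used here do not name the caller, aligner, IDR threshold or read depth, and the control was not analysed here. The deposited signal value of each region served for ranks inside each list. The deposited −log10 q-value was inspected but entered no result. The deposited summit offset gave each position. The 3897 IDR peaks equal the strongest 3897 of 30000 pooled regions; the replicate lists hold 30000 and 26018.

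Genes came from Ensembl release 115 on WBcel235, the same build as ce11, with the outermost 5' end of each gene; trans-splicing can place the true start upstream. A region matched between lists if its summits lay within 100 bp. Chains joined same-strand protein-coding genes with gaps of up to 500 bp. Protein identity came from translated annotated coding sequences, found with BLAST+ 2.17.0 (E-value limit 1e-05) and aligned globally with Biopython 1.88. Scripts ran in Python 3.11.15 (matplotlib 3.10.9, scipy 1.17.1, numpy 2.4.6, pandas 2.3.3). The search for summits in windows and for words was checked on simulated positions and sequences with known content. That check covers the search only, and not the deposited peaks or the binding of LSL-1.

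Members, lists, words and pairs were chosen with earlier results of these data known, and no chance test was made. The genes named are all members, genes that share their peaks or begin their chains, the annotation under their summits, named copies or genes with at least 50% protein identity, and the 3 strongest of each related list. Of the listed names, 4 other respiratory chain and 2 coenzyme Q names were not found in the annotation.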

Additional observations from a re-analysis of the deposited data

How the results depend on the processing

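The number of bound members stayed within 1.5 times of 23 in 6 of 8 alternative settings, and that of X-linked members at 0 in 7 of 8. It was 20 with the narrower window, which left out sdhd-1, cox-6A and cox-6B, and 26 with the window of 2000 bp upstream, which added nuo-5, ucr-11 and cox-10. With the closest gene alone it was 15, all autosomal. With any pooled region it was 41, of which 37 were autosomal and 4 X-linked. Without replicate 1 and without replicate 2 it ranged from 23 to 23. The share of all protein-coding genes moved too: 11.3% with the narrower window, 17.5% with the wider, 10.5% with the closest gene alone, 9% for the upper 50% of peaks by signal, 36.7% with any pooled region, and from 13.6% to 14.2% with 1 replicate left out. With the upper 50% of peaks, 18 members were bound. Summits with ACAGTA or ACTGTA made up 13.0% of the bound members within 25 bp and 30.4% within 100 bp, against 26.1% within 50 bp. Over all IDR promoter summits the shares were 10.3% within 25 bp, 26.2% within 100 bp and 19.4% within 50 bp. With matches within 50 bp 21 peaks were in both replicates, within 200 bp 22 were, and with the whole replicate lists 23 were. With other gap limits 8 to 9 unbound autosomal genes stood in an operon-like position. No paired analysis was possible because there is 1 group. The depth is unknown, so whether a region missing from replicate 2 would be found with more reads was not tested.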

Other observations

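Copies that all lie on autosomes also differed. Of the ADP/ATP carrier genes, whose proteins exchange ADP and ATP across the inner membrane, ant-1.1 on III had a peak of rank 480 (485 in replicate 1 and 470 in replicate 2), shared with T27E9.2 and abcf-2. The copies ant-1.2 on I and ant-1.3 on IV (79.7% and 90.3% identical to it) had no pooled region, and ant-1.4 on IV (90.7%) had one of rank 15311. Of the cytochrome c genes, cyc-2.1 on IV was bound and cyc-2.2 on V (78.4% identical) had no pooled region.

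In the cox-6C family all copies were bound. The cox-6C protein was 74.4% identical to those of Y111B2A.2 on III and B0035.18 on IV. The peak at Y111B2A.2 had rank 103 (106 and 103), shared with Y111B2A.1 and herd-1, and that at B0035.18 had rank 452 (482 and 357), shared with edg-1, where cox-6C had rank 771 (728 and 918), shared with grld-1. T26E3.7 on I, whose protein of 106 residues was 52.8% identical to that of atp-1, had no pooled region.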
